A study of Rattus norvegicus with 6 samples.

Results

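Cell cycle and DNA replication genes were compared in kidneys of 2 rat strains. The list of 38 genes was drawn up by symbol: genes of DNA replication, genes of mitosis, and the cyclins, cyclin-dependent kinases and inhibitors that time both. Each gene was represented by its probe set (the group of short probes that reads 1 transcript) with a single gene symbol and the highest mean signal over the 6 arrays. In this way 37 of the 38 genes were measured, out of 14217 named genes on the array. The missing one was Rrm2, a subunit of ribonucleotide reductase, whose probe sets each carry a second symbol as well. By mean log2 signal, 29 of the 37 genes lay above the median of all probe sets and 8 below it. By arithmetic mean signal the split was 30 and 7, since Plk1 averaged 173.9 against a median of 169.9.

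The congenic group held 3 adult males of the strain S.LEW.D1MCO4x1x3Bx1, in which a stretch of the Lewis rat genome replaces the corresponding one on the background of the S rat. The S group held 3 adult males of the inbred Dahl salt-sensitive (SS/Jr) strain, the parent that gives the congenic rats the rest of their genome. Both groups therefore share the salt-sensitive background. Each rat has its own animal number in the labels and 1 array of total kidney RNA. The sources used here give neither the diet, nor the age in weeks, nor the limits of the donor segment. By its title the series belonged to the search for variants of Adamts16 linked to hypertension.

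Cells that divide switch on these genes in waves. D-type cyclins with Cdk4 or Cdk6 release E2F transcription factors from the retinoblastoma protein Rb1, E2F then turns on the replication genes, and a later wave driven through the CHR promoter element supplies the mitotic machinery. Most cells of the adult kidney are at rest, and many mitotic genes are active mainly in cells that divide, while Cdkn1b is also made in resting cells. Which cells gave the signals described here was not tested. In whole-kidney RNA, fewer cells of a type and less RNA per cell cannot be told apart.

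Promoter windows of these groups of genes differed in the short words they held. RefSeq promoter windows of the rat assembly GRCr8, each with 250 bases before and 50 bases after the gene's start, were at hand for 30 of the 37 genes and 27457 genes in all. No window was at hand for Mcm4, Aurkb, Ccna2, Ccnd1, Ccnd2, Cdk6 and E2f1. An E2F-like word (TTTGGCGC, TTTCGCGC or TTTCCCGC, either strand) was found in 7 of 9 windows of replication genes, in 0 of 8 of mitosis genes and in 2 of 13 of the cyclin, kinase and inhibitor genes, against 1.82% of all windows. The CHR word (TTTGAA, either strand) was found in 1 of 9 windows of replication genes, in 6 of 8 of mitosis genes and in 2 of 13 of the third group, against 18.1% of all windows. The box bound by the factor NF-Y (CCAAT, either strand) was found in 7 of 9, 6 of 8 and 7 of 13 windows, against 37.7% of all. The words TATAAA and CACGTG were searched as well and were found in 0 and 2 of the 30 windows, against 14.3% and 6.65% of all. E2F-like words on opposite strands can overlap, as in Mcm2, Mcm5 and Mcm6. A match is a description of the letters and not evidence of binding.

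**Figure D1:**
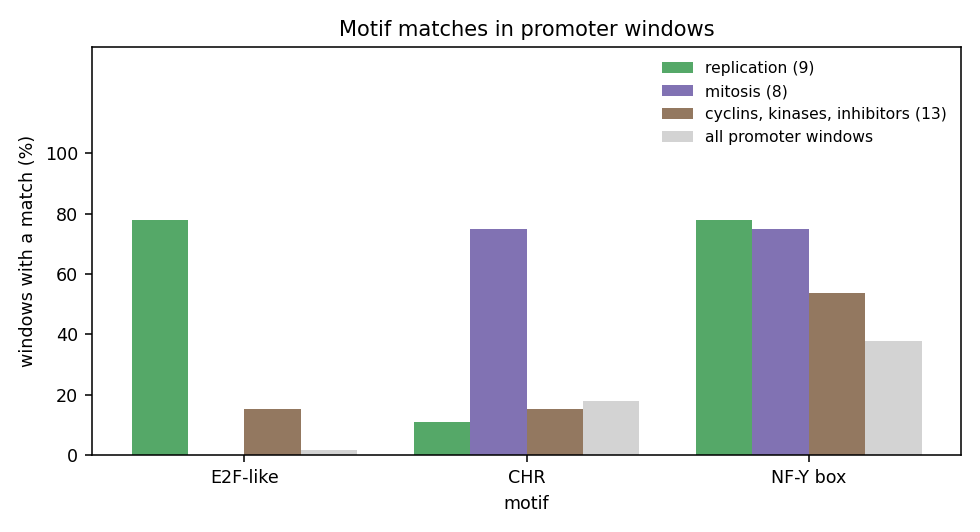
Share of promoter windows with a match to each of 3 motifs (vertical axis, percent) in replication genes, mitosis genes, the cyclin, kinase and inhibitor genes, and all windows (grey), with the number of windows in brackets. E2F-like words were found in 77.8% of replication windows and in none of the mitosis windows, and the CHR word in 75.0% of mitosis windows.

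The following windows make this contrast visible. They run 5′ to 3′ in the direction of the gene, with E2F-like and CHR words in capitals and the gene's start at base 251 (GRCr8). The first 4 belong to subunits of the MCM helicase, which unwinds DNA at replication forks and whose genes are described by rat further on. The next 3 belong to mitotic genes: the proliferation marker Mki67, the topoisomerase Top2a and the checkpoint kinase Bub1b, whose low signals are described further on. The last belongs to Cdk1, the kinase that starts mitosis. The Cdk1 window holds words of both kinds. So does that of Mcm2, the 1 of 9 replication windows with a CHR word, which goes against the contrast.
Mcm2 (chr4:122918045-122918344, - strand): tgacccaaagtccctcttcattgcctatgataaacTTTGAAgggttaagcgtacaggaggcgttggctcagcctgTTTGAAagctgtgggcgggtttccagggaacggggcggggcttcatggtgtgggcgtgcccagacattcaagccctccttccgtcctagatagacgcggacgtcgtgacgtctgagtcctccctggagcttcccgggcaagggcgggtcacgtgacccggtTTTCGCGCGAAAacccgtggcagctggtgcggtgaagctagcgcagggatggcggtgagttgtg
Mcm5 (chr19:13488563-13488862, + strand): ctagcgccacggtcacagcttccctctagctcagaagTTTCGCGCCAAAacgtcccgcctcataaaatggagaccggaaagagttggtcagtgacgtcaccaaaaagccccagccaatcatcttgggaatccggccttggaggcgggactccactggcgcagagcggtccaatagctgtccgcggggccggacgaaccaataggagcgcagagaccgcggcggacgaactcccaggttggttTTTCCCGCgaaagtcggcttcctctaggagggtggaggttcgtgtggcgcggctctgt
Mcm6 (chr13:42404303-42404602, - strand): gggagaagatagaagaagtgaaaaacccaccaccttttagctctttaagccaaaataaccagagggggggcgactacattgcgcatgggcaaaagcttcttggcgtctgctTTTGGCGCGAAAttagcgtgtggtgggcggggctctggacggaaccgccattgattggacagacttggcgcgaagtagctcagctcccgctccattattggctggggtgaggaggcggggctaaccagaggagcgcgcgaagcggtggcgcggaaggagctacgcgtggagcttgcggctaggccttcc
Mcm7 (chr12:22163129-22163428, - strand): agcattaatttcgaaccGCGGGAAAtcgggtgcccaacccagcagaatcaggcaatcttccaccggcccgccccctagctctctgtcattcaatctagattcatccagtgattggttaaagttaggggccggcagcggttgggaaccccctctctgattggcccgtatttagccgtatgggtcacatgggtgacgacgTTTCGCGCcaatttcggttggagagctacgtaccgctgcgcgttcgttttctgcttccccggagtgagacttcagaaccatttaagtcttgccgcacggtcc
Mki67 (chr1:199952544-199952843, - strand): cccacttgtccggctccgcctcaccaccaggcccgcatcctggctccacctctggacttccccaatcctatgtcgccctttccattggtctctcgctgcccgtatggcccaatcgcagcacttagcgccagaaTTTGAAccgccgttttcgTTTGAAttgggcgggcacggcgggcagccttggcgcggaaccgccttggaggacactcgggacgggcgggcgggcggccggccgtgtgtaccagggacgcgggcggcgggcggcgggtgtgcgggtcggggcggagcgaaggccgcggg
Top2a (chr10:84473044-84473343, - strand): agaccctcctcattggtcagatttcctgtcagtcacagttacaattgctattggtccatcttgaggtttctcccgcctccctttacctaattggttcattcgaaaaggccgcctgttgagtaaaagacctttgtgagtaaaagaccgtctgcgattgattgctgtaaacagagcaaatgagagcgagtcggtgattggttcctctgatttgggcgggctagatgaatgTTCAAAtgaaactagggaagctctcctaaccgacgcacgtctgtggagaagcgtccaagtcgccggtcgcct
Bub1b (chr3:126016817-126017116, + strand): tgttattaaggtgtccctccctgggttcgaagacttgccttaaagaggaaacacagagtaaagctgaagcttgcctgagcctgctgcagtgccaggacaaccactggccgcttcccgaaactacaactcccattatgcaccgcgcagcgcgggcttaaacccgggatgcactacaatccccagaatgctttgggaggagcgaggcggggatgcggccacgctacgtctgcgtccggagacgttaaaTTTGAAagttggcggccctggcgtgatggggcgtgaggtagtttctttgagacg
Cdk1 (chr20:19265043-19265342, + strand): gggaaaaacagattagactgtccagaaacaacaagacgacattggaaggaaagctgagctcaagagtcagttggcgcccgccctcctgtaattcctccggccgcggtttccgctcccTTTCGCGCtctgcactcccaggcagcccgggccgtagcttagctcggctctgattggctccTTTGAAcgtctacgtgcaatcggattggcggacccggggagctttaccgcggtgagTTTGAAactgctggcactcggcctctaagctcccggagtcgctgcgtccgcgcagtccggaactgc

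Across the 31042 probe sets fitted with limma, congenic minus S, 0 passed an adjusted p of 0.05 (Benjamini-Hochberg over all of them), and 2462 (7.93%) had an unadjusted p under 0.05. The smallest adjusted p among the cell cycle genes was 0.606, so none of the 37 genes rose or fell by the adjusted test (0 called, as in 0% of all named genes). An unadjusted p under 0.05 was reached by 1 gene with a higher congenic signal and by 2 with a lower one. Of all 14217 named genes, 4.97% reached it with a higher and 4.24% with a lower congenic signal, 9.21% in all, and 3 of 37 is close to that background. The 3 congenic values lay all above the 3 S values for 2 genes and all below for 2, 4 of 37, against 7.51% and 6.7% of all named genes, 14.2% in all. Among the 9334 named genes above the median of mean log2 signal these shares were 6.48% higher and 5.06% lower by unadjusted p (11.5% in all), and 9.59% above and 7.45% below by separation (17.0% in all). The log2 difference was positive for 26 of the 37 genes and negative for 11, against 7230 and 6987 of all named genes. Median centring of the arrays adds 0.0707 to every log2 difference, which gave 31 and 6 of the 37 genes and 8874 and 5343 of all named genes. The median log2 difference was 0.05 over the 37 genes and 6.06e-04 over all named genes. Array medians ran from 161.7 to 177.8, and markers of kidney tubules were strong, from 93839 to 116508 summed over 7 genes. Markers of adrenal tissue, summed over 2 genes, were at 38 to 146 in congenic and 17 to 85 in S kidneys, and both of these genes ranked below the median signal.

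**Figure D2:**
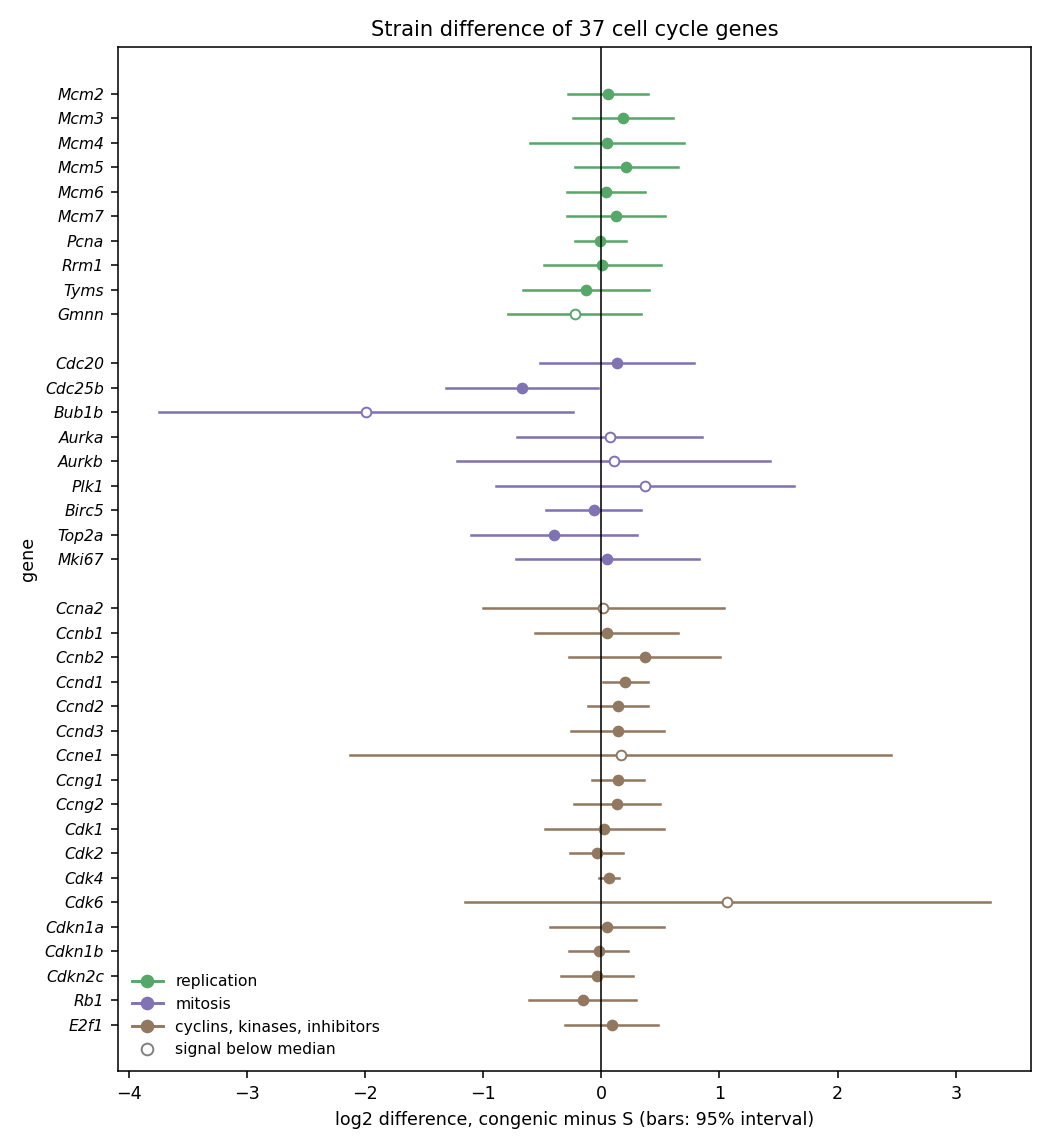
Log2 difference, congenic minus S, of the 37 measured genes (horizontal axis) with its 95% interval from limma, grouped by role. Open points mark the 8 genes below the median of mean log2 signal. Intervals of Cdc25b, Bub1b and Ccnd1 leave out 0 before adjustment, and those of the other genes include it.

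The signals of all 10 measured replication genes overlapped between the strains, against 14.2% of all named genes without overlap. The 6 MCM genes, Mcm2 to Mcm7, had log2 differences from 0.04 (Mcm6) to 0.21 (Mcm5), all positive, with standard errors of 0.13 to 0.26. Mcm2, a subunit of the helicase ring, had signals of 472.2, 506.1 and 442.9 in the congenic rats and 538.2, 446.8 and 391.3 in the S rats. The S values span all of the congenic ones. Its log2 difference was 0.06 with a 95% interval of -0.28 to 0.39 (limma, adjusted p = 0.93; exact permutation p = 0.9). Mcm5 averaged 414 ± 51.3 in congenic and 360.4 ± 68.0 in S kidneys (SD, n = 3 each), and the strains overlapped. For Mcm3 the averages were 307 ± 40.8 in congenic and 271 ± 46.4 in S kidneys. Mcm4, Mcm6 and Mcm7 overlapped between strains too. All 6 differences were positive with quantile normalisation and with cyclic loess too, but 3 of 6 were without S replicate 3 and 4 of 6 without congenic replicate 2.

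Pcna, the sliding clamp that holds DNA polymerases on the template, read 3111, 3633 and 3297 in the congenic rats and 3681, 3288 and 3132 in the S rats. Its log2 difference was -0.01 with a 95% interval of -0.22 to 0.21, and its sign turned with single rats left out. It was negative with quantile normalisation and cyclic loess and positive with the shift that median centring gives all genes. Both strains cover the same range, and the interval bounds any difference of Pcna within about that range. The enzymes that supply nucleotides were Rrm1, the large subunit of ribonucleotide reductase, and Tyms, thymidylate synthase. Rrm1 averaged 835 ± 192 in congenic and 822 ± 126 in S kidneys, and Tyms 174 ± 31.3 in congenic and 189 ± 27.4 in S kidneys. Gmnn, geminin, which keeps DNA from being licensed for a second round of replication, lay below the median signal with 131 ± 24.8 in congenic and 152 ± 16.2 in S kidneys. None of the 10 replication genes reached an unadjusted p under 0.05 (limma), against 9.21% of all named genes. With only 10 genes that count cannot be told from the share of all named genes. The median log2 difference of the 10 genes was 0.04, and it was -0.06 without congenic replicate 2.

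Both genes whose congenic values all lay below the S values were mitotic, 2 of 9 mitosis genes against 6.7% of all named genes. Of 32 further mitosis genes, described later on, 0 lay all below and 4 all above. Bub1b, the BubR1 kinase of the spindle checkpoint, read 14.58, 17.97 and 13.38 in the congenic rats and 141.1, 21.57 and 72.49 in the S rats. The strains did not overlap, although S replicate 2 lay just above the highest congenic rat. The congenic values sat close to the floor of 12.3 under which signals were not separated, and the probe set ranked at the 22.9th percentile of mean signal. On the log2 scale congenic minus S came to -1.99 ± 0.70 (SE), within a 95% interval of -3.74 to -0.24 (limma, unadjusted p = 0.0321, adjusted p = 0.606; exact permutation p = 0.1, the smallest that 3 against 3 allows). The size depends on how low signals are treated: the log2 difference was -1.37 with a pseudocount of 16 and -0.64 with a floor at the 25th percentile. Without S replicate 1 it was -1.38.

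Cdc25b, a phosphatase that activates cyclin-dependent kinases at the entry into mitosis, read 143.5, 224.9 and 141.6 in the congenic rats and 331.1, 227.8 and 245.4 in the S rats. The highest congenic rat and the lowest S rat were almost level. Averages were 170 ± 47.5 in congenic and 268 ± 55.3 in S kidneys, a log2 difference of -0.67 with a 95% interval of -1.32 to -0.03 (limma, unadjusted p = 0.0431, adjusted p = 0.614). It stayed negative under each alternative run, from -0.89 to -0.51. Its window held a CCAAT word but no E2F-like or CHR word.

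Top2a, the topoisomerase that untangles chromosomes before they part, read 301.8, 312.1 and 204.4 in the congenic rats and 497.7, 278.1 and 320.5 in the S rats. The single high value was S replicate 1, and without that rat the log2 difference was -0.16, against -0.40 with all rats. Its second probe set had a log2 difference of -0.10. Mki67, which coats mitotic chromosomes and marks proliferating cells, read 202.7, 440.8 and 265.2 in the congenic rats and 260.5, 247.2 and 332.3 in the S rats. Congenic rats held both the lowest and the highest value, and the log2 difference of 0.05 became -0.26 without congenic replicate 2. Its 95% interval of -0.72 to 0.82 leaves differences of more than 1.5-fold in either direction within reach.

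The remaining mitotic genes overlapped between the strains. Birc5, survivin, a member of the chromosomal passenger complex, averaged 200.4 ± 27.1 in congenic and 209 ± 13.9 in S kidneys. Cdc20, which activates the anaphase-promoting complex, averaged 311 ± 55.1 in congenic and 289.8 ± 94.2 in S kidneys. The 5 probe sets of Cdc20 disagreed: their log2 differences were 0.05, 0.60, 0.13, -0.09 and -1.69. The last, with a mean signal of 44.4, had all congenic values below all S values (unadjusted p = 0.00844 in limma). The one at 0.60, with a mean signal of 47.3, had all congenic values above all S values (unadjusted p = 0.121 in limma). The mitotic kinases Aurka, Aurkb and Plk1 all lay below the median by mean log2 signal, with log2 differences of 0.07, 0.10 and 0.37 and standard errors of 0.32, 0.53 and 0.51. Plk1 read 159.7 to 212.6 in congenic rats, and 301.3, 109.3 and 84.39 in the S rats, of which S replicate 1 stood out. The log2 difference of Plk1 was 0.92 without S replicate 1 (unadjusted p = 0.0194 in limma), 0.19 without S replicate 2 (unadjusted p = 0.768 in limma) and 8.80e-04 without S replicate 3 (unadjusted p = 0.999 in limma).

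**Figure D3:**
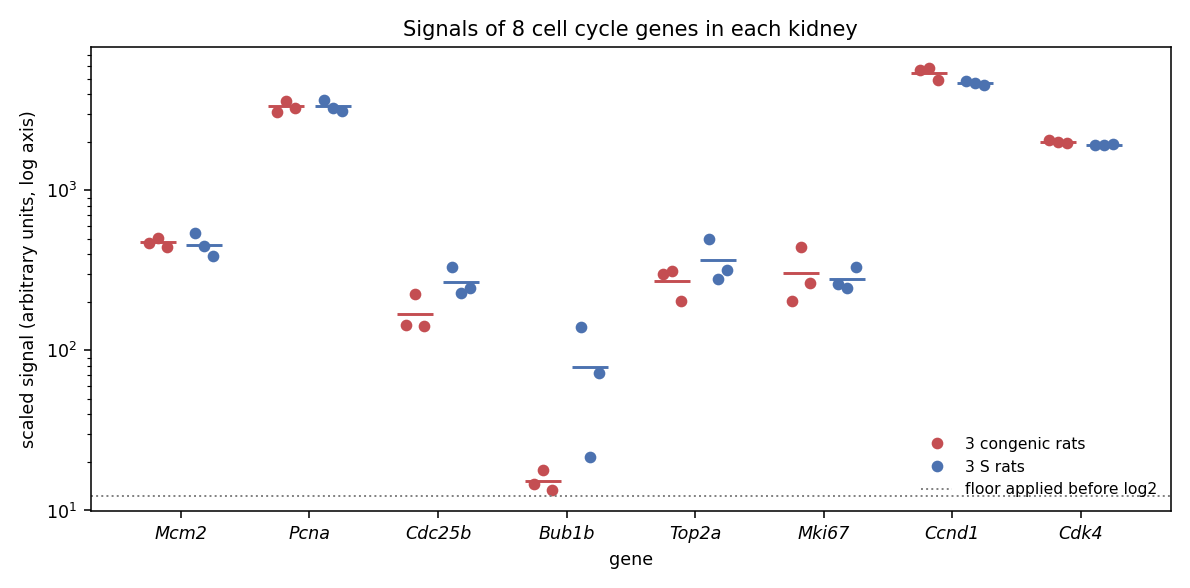
Scaled signal (log axis) of 8 genes in each of 3 congenic rats (red) and 3 S rats (blue); bars are group means and the dotted line is the floor of 12.3 applied before log2. Strains separate for Cdc25b, Bub1b, Ccnd1 and Cdk4 and overlap for Mcm2, Pcna, Top2a and Mki67; heights of different genes are not comparable.

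Cyclins leaned toward higher congenic values by small amounts. All 9 measured cyclins had a positive log2 difference, with a median of 0.14, whereas 7230 of 14217 named genes were positive. This count was also 9 of 9 with quantile normalisation and with cyclic loess, and 6 of 9 without congenic replicate 2 and without S replicate 3. The second probe set of Ccnb1, with a mean signal of 232.7, had a log2 difference of -0.03. For the 9 cyclins the mean deviation from each gene's own log2 average was -0.11, 0.27 and 0.07 in congenic replicates 1 to 3. It was 0.20, -0.14 and -0.29 in S replicates 1 to 3. The difference of 0.15 between strain means was smaller than the SD of 0.22 pooled within strains. Ccnd1, cyclin D1, which links growth signals to Cdk4 and Cdk6, read 5638, 5785 and 4879 in the congenic rats and 4845, 4685 and 4582 in the S rats. Congenic replicate 3 lay only just above the highest S rat. The fold was 1.15, a log2 difference of 0.20 with a 95% interval of 0.02 to 0.39 (limma, unadjusted p = 0.0387, adjusted p = 0.613). The other 2 probe sets of Ccnd1 had log2 differences of 0.06 and 0.10 and overlapped between strains, and with the 3 probe sets averaged the log2 difference was 0.12 (unadjusted p = 0.101 in limma). After quantile normalisation and cyclic loess the first one had 0.17 and 0.16 (unadjusted p = 0.057 and 0.0761 in limma).

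The other D-type cyclins, Ccnd2 and Ccnd3, each had a log2 difference of 0.14. Ccnd2 averaged 597 ± 25.5 in congenic and 543 ± 65.6 in S kidneys, and Ccnd3 1175 ± 170 in congenic and 1070.4 ± 189 in S kidneys. Ccng1, cyclin G1, a target of p53, averaged 2516 ± 278 in congenic and 2277 ± 90.9 in S kidneys. Ccng2, a cyclin of cells that leave the cycle, averaged 950.4 ± 108 in congenic and 872 ± 139 in S kidneys. For each of these 4 genes the strains overlapped. The mitotic cyclin Ccnb2 had a log2 difference of 0.37 with a standard error of 0.26, and read 388.4 to 453.3 in congenic rats, against 488.8, 286.6 and 258.9 in S rats. That difference was 0.65 without S replicate 1 (unadjusted p = 0.00357 in limma), 0.26 without S replicate 2 (unadjusted p = 0.421 in limma) and 0.19 without S replicate 3 (unadjusted p = 0.495 in limma), with no cell cycle gene past the adjusted threshold. Ccnb1 and Ccna2, the partners of Cdk1 and Cdk2, had log2 differences of 0.04 and 0.02. Ccne1, cyclin E1, read 17.89, 132.4 and 171.5 in the congenic rats, against 54.48 to 86.75 in S rats, too wide a spread to place.

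Among the kinases, Cdk4 read 2052, 2010 and 1978 in the congenic rats and 1925, 1914 and 1938 in the S rats. The groups did not overlap, but the fold was 1.05 and the 95% interval of the log2 difference ran from -0.02 to 0.15 (limma, adjusted p = 0.68). Cdk1 averaged 399 ± 16.4 in congenic and 402 ± 111 in S kidneys, and Cdk2, the kinase of S phase, 394 ± 33.2 in congenic and 404 ± 15.3 in S kidneys. Cdk6 was below the floor on 3 of 6 arrays, so no fold is given. The inhibitors had small differences, whose signs turned with single rats left out: Cdkn1a (p21), the p53-induced brake, had a log2 difference of 0.05, Cdkn1b (p27) -0.02 and Cdkn2c (p18), an inhibitor of Cdk4 and Cdk6, -0.04. For Cdkn1b the 95% interval was -0.27 to 0.23. Rb1 averaged 797 ± 127 in congenic and 891 ± 164 in S kidneys, and E2f1 254 ± 27.2 in congenic and 240.1 ± 33.4 in S kidneys. The second probe sets of Cdkn1a and Cdkn1b, at mean signals of 70.7 and 69.4, had log2 differences of -0.93 and -0.38 and overlapped between strains.

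Differences between single rats were wide for these genes. Of the 19 replication and mitosis genes, congenic replicate 2 had the highest signal for 7 and S replicate 1 for 10, whereas these rats were highest for 14.8% and 18.1% of all named genes. Congenic replicate 1, congenic replicate 3 and S replicate 2 were highest for none of the 19. For the 6 MCM genes the deviation from each gene's own log2 average, taken as a mean over genes, was -0.08, 0.27 and -0.02 in congenic replicates 1 to 3. It was 0.14, -0.10 and -0.21 in S replicates 1 to 3. The spread within each strain was wider than the difference of 0.11 between strain means. For the 9 mitosis genes alone the deviations were -0.22, 0.002 and -0.18 in congenic rats and 0.59, -0.28 and 0.09 in S rats. There S replicate 1 was highest for 6 genes and congenic replicate 2 for 2, so that congenic rat did not lead with it. For the 18 cyclin, kinase and inhibitor genes the deviations were 0.03, 0.09 and 0.08 in congenic rats and 0.11, -0.06 and -0.25 in S rats.

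**Figure D4:**
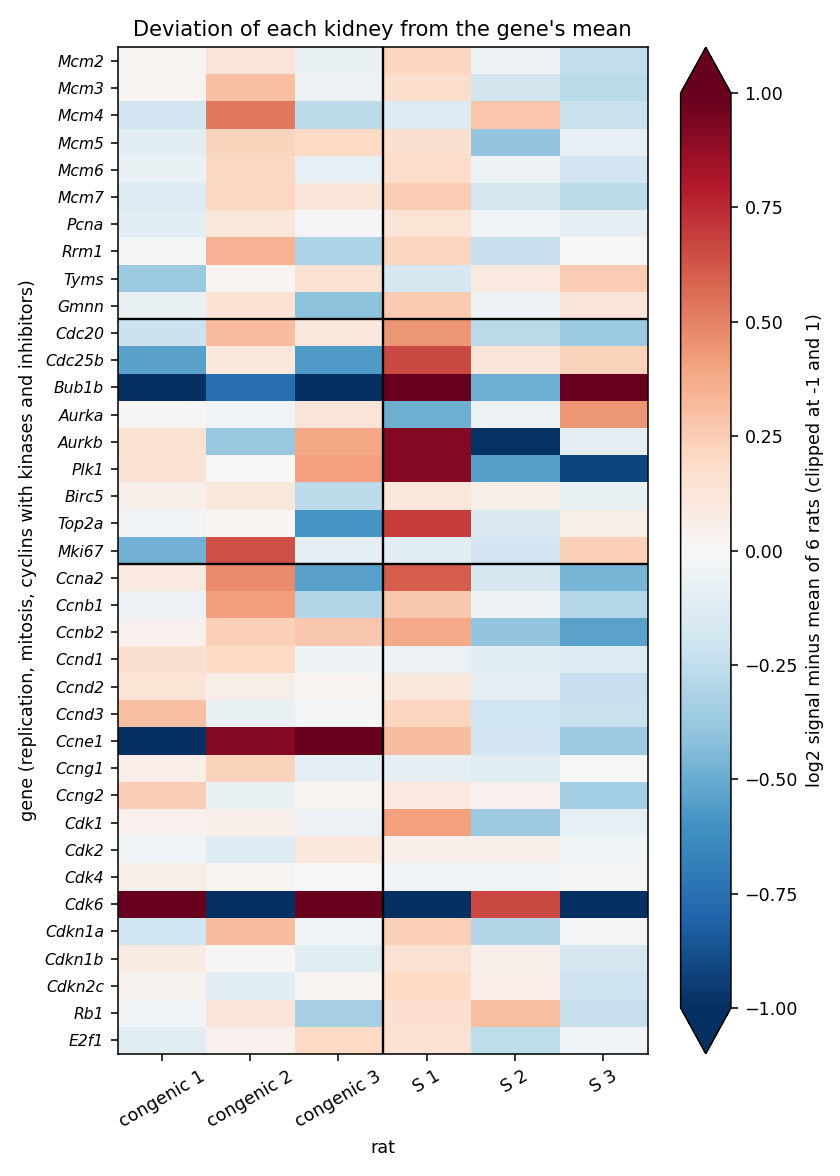
Log2 signal of each gene in each rat minus its mean over the 6 rats (colour, clipped at -1 and 1); columns are rats, with congenic left of S, and horizontal lines part replication genes, mitosis genes, and cyclins with kinases and inhibitors. Congenic replicate 2 and S replicate 1 are above average for most replication genes, and the low-signal genes Bub1b, Ccne1 and Cdk6 vary most.

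Genes outside the list that act in the same processes behaved alike in part. Of 38 further mitosis genes 32 were measured, and congenic replicate 2 was highest for 9 and S replicate 1 for 14 of them. Measured the same way, they deviated by -0.20, 0.24 and 0.02 in congenic replicates 1 to 3 and by 0.22, -0.13 and -0.14 in S replicates 1 to 3, so the same pair of rats led. Among 36 measured further replication genes congenic replicate 2 was highest for 9, congenic replicate 1 for 7 and S replicate 1 for 7. Of the 25 above the median signal, S replicate 1 was highest for 3. That is 12%, against 16.6% of all named genes above the median. After quantile normalisation congenic replicate 2 was highest for 13 of the 36 and S replicate 1 for 3, or 8.33% against 16.8% of all named genes, so S replicate 1 did not lead there. After cyclic loess scaling, the pair led in 12 (congenic replicate 2) and 9 (S replicate 1) of the 32 mitosis genes, against 16.3% and 16.5% of all named genes. Markers of red cells, summed over Hbb and Alas2, were at 9923 to 16814 in congenic and 15467 to 22013 in S rats, highest in S replicate 1. Congenic replicate 2 stood at 13912, below each S rat. Markers of immune cells, summed over 6 genes, were at 16522 to 18750 in congenic and 15384 to 16850 in S rats, and stood at 16522 in congenic replicate 2 and 16518 in S replicate 1. Most of this sum came from Cd74 and Lyz2. By strain, 4 of the 6 genes had a positive and 2 a negative log2 difference. Only Cd68 did not overlap, at 240.1 to 306.6 in congenic and 151.3 to 234.3 in S rats, against 14.2% of all named genes without overlap. The part of other cell types in the variation between rats was not tested.

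**Figure D5:**
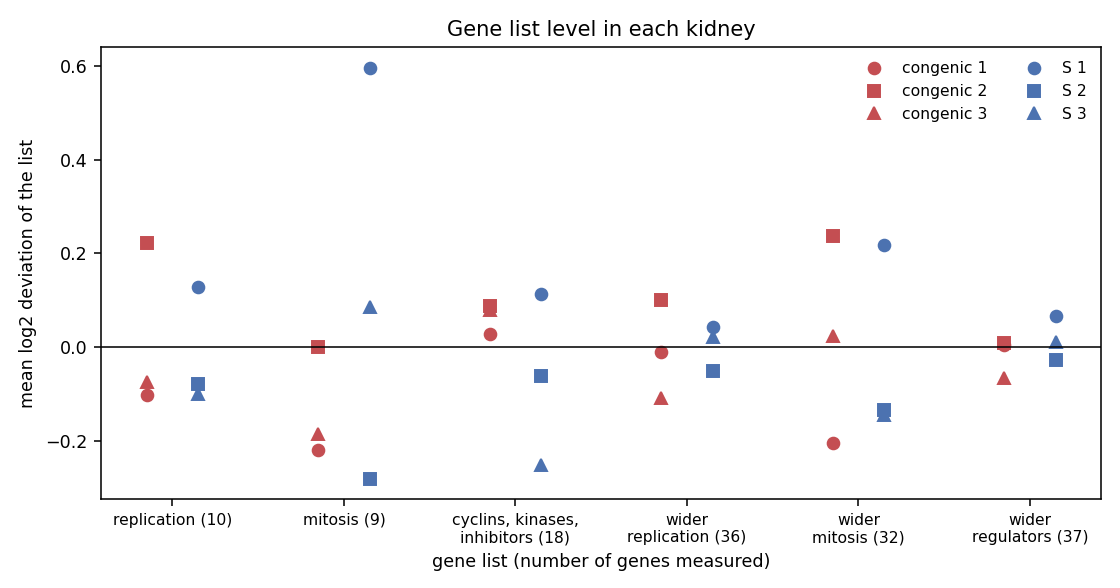
Mean log2 deviation (vertical axis) of 6 gene lists in each rat, congenic in red left of S in blue, with a marker shape for each replicate and the number of measured genes in brackets. Congenic replicate 2 and S replicate 1 lie highest for the replication genes and for both wider lists of replication and mitosis genes. Over the 25 wider replication genes above the median signal, not drawn here, S replicate 1 was at -0.03 and congenic replicate 2 at 0.09.

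By strain, the further mitosis genes included 4 of 32 with an unadjusted p under 0.05 and a higher congenic signal, and 0 with a lower one (limma; none passed the adjusted threshold; smallest adjusted p = 0.446), against 4.97% and 4.24% of all named genes. Kif11, the kinesin that pushes spindle poles apart, read 936.6, 951.4 and 923.8 in the congenic rats and 782.7, 805.2 and 735.1 in the S rats, a log2 difference of 0.28 with a standard error of 0.05. With both its probe sets averaged, Kif11 had 0.18 (unadjusted p = 0.182 in limma). Melk, a kinase of dividing cells, read 585.8, 637.2 and 620.5 in the congenic rats and 402.5, 387.9 and 484.0 in the S rats, a log2 difference of 0.54 with a standard error of 0.10. Neither gene overlapped between the strains. Zwint, a kinetochore protein, averaged 5462 ± 727 in congenic and 4153 ± 399 in S kidneys. Ncapd2, a condensin subunit, averaged 187 ± 11.7 in congenic and 109 ± 23.0 in S kidneys and lay below the median signal. The median log2 difference of the 32 genes was 0.11.

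The further replication genes had 1 higher and 1 lower gene among 36 at an unadjusted p under 0.05, near the 4.97% higher and 4.24% lower of all named genes. Rpa1, which covers single-stranded DNA, averaged 1117 ± 59.3 in congenic and 1282 ± 41.1 in S kidneys, with no overlap. Rfc1, the large subunit of the loader of Pcna, averaged 664 ± 73.1 in congenic and 527 ± 51.3 in S kidneys, with no overlap either, and with its 3 probe sets averaged it had a log2 difference of 0.40 (unadjusted p = 0.12 in limma). Pold3, a DNA polymerase subunit, and Orc5, a subunit of the origin recognition complex, had log2 differences of -0.31 and 0.20, and that of Orc5 was 0.0378 with both its probe sets averaged. Of 37 measured further regulators, 1 reached an unadjusted p under 0.05 with a higher signal (Wee1, the kinase that restrains Cdk1, log2 difference 0.26) and 1 with a lower one (Tob1, an antiproliferative protein, -0.36), again near the shares of all named genes. With both probe sets averaged Wee1 had 0.23 (unadjusted p = 0.128 in limma). E2f7, a repressing E2F factor, had 0.68 (unadjusted p = 0.0582 in limma) and lay below the median signal. Cdc27, a subunit of the anaphase-promoting complex, had -0.44 (unadjusted p = 0.0683 in limma). Among 13 measured p53 targets, beside Cdkn1a and Ccng1, 1 reached an unadjusted p under 0.05 (limma), near the 9.21% of all named genes. It was the stress gene Sesn2, with 1476.5 ± 32.8 in congenic and 1299.7 ± 76.4 in S kidneys. With both its probe sets averaged, its log2 difference turned to -0.0415 (unadjusted p = 0.757 in limma), against 0.19. Sesn1, Phlda3 and Tp53inp1 had log2 differences of 0.09, 0.19 and -0.44 and overlapped between strains, and Tp53inp1 lay below the median signal.

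In the gene order of GRCr8, 5 of the 37 genes share chromosome 1 with Adamts16: Ccne1, Rrm1, Plk1, Mki67 and Ccnd1. Between Adamts16 and the nearest of them, Ccne1, lie 910 protein-coding genes, and 2202 lie between Adamts16 and Ccnd1. Of these 5 genes Ccnd1 was the one whose strains did not overlap, against 14.2% of all named genes. The other probe sets of Ccnd1 did overlap between strains.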

How the data were processed

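Total kidney RNA of 6 rats was hybridised as biotin-labelled cRNA to 1-colour Affymetrix arrays. The authors deposited 1 linear intensity for each probe set, which GCOS 1.4 computed, per the submitters' processing notes. For this program the sources used here give neither its settings nor detection calls. The mean of each array after trimming was 500.2, so the arrays had been scaled before deposit, and no further normalisation was applied. After 57 array controls were left out, values under the 10th percentile (12.3) were set to that value before taking log2. All 31042 probe sets were fitted with limma 3.58.1 in R 4.3.3 (eBayes with an intensity trend), congenic minus S, with Benjamini-Hochberg adjustment, and single genes also by the 2-sided exact permutation test. Precision is limited by the small number of arrays, with a median standard error of 0.17 (log2) for the 29 cell cycle genes above the median of mean log2 signal and 0.52 for the 8 below it.

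Symbols came from the platform annotation, updated through Entrez identifiers: 20826 probe sets had 1 symbol, 436 several and 9780 none. The genes, the wider lists and the motifs were chosen with earlier results of these data known. All genes of the list are accounted for. Every array is given for genes with unadjusted p under 0.05, for genes without overlap and for Mki67, Top2a, Pcna, Mcm2 and Ccnd1; values of single rats for Plk1, Ccnb2 and Ccne1 were added after they were seen. From each wider list the 4 genes of smallest p are named. The procedure was tested on simulated data. Alternatives covered the floor, a pseudocount, the filter on low signals, the scaling, the variance model, array weights, the probe set of a gene and each rat left out. Figures were drawn with matplotlib 3.10.9.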

Additional observations from a re-analysis of the deposited data

How the results depend on the processing

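No cell cycle gene passed adjusted p 0.05 in limma under any of the 16 alternatives run. The count of 3 genes at unadjusted p under 0.05 was 1 with quantile scaling and 1 with cyclic loess, and 0 to 3 with 1 rat left out. Of the 3 genes, 0 remained without congenic replicate 1, without S replicate 1 and without S replicate 3. Without S replicate 1 a different set of 3 reached it, Plk1, Ccnb2 and Ccnd2. The count of 4 genes without overlap was 2 with quantile scaling and 2 with cyclic loess. With 1 rat left out it was 5 to 12 (12 without S replicate 1, 8 without S replicate 3). Separation is easier to reach with fewer samples, and the share of all named genes at those settings is not given here. Why the counts rose was not tested. Over the whole table, 4 probe sets passed adjusted p 0.05 with a floor at the 25th percentile. The 2462 at unadjusted p under 0.05 were 1602 when only probe sets above the median were tested and 1214 over genes with probe sets averaged. Of the 37 cell cycle genes, 16 kept their direction and 21 turned in at least 1 of 11 alternatives (the floor, the pseudocount, 3 scalings and each rat left out). Of 24 genes followed through the 16, 20 kept it, although Bub1b, E2f7, Ncapd2 and Tp53inp1 had a value in only 15. But 16 of these 24 were named for the smallest p of their list. Bub1b, Cdc25b, Ccnd1 and Cdk4 met the criterion of unadjusted p under 0.05 or of no overlap. Of the remaining genes, Mcm2, Pcna and Mki67 turned and Top2a did not. The log2 difference of Pcna turned to 0.0625 with median centring and 0.00395 with array weights, and ran from -0.0687 to 0.0579 with 1 rat left out (positive without congenic replicate 1, congenic replicate 3 or S replicate 1). That of Mki67 ran from -0.260 to 0.301 with 1 rat left out (negative without congenic replicate 2 or S replicate 2), and that of Mcm2 from -0.0520 to 0.178 (negative without S replicate 3). That of Sesn2 was -0.0415 with probe sets averaged. The cause was not tested. Median log2 differences ran from -0.06 to 0.13 for replication, from -0.14 to 0.12 for mitosis and from 0.04 to 0.20 for the cyclin, kinase and inhibitor genes. No paired analysis was possible because the labels give the strains no shared replicate numbers. Signals under the floor have no order, and the 8 genes below the median of mean log2 signal had a median standard error of 0.52.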
